A study of Schizosaccharomyces pombe with 3 samples.

Results

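The region described here is made of the first numbered probes, sp40c_1 to sp40c_2240, of a fission yeast (*Schizosaccharomyces pombe*) tiling microarray, an array whose probes follow each other along both DNA strands. The array has 174063 numbered probes, and members were taken by number alone, from sp40c_1 to sp40c_2240. They gave 56 windows of 40 numbers out of 4351 windows on the array, and every probe in these numbers was found on each array. Windows are numbered here from 1 to 56 in the order of the probes, so that window 1 holds sp40c_1 to sp40c_40. Odd- and even-numbered probes were kept apart as the strand sets, so that each window gave a pair of tiles of 20 probes, named here by window and parity (tile 5 odd). Which parity reads which strand was not established here. Within the region, 4 runs had been picked because the strand sets looked alike in the wildtype channel. They are the first run (windows 1-12, sp40c_1 to sp40c_480), the second run (windows 22-29, sp40c_841 to sp40c_1160), the third run (windows 37-46, sp40c_1441 to sp40c_1840) and the last run (windows 49-56, sp40c_1921 to sp40c_2240). These 38 windows were set against the 18 windows between them, which form 3 stretches, windows 13-21, 30-36 and 47-48.

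There were 3 arrays. On 2 of them, RNA of the *dhp1-1* strain p1088 was hybridised with RNA of the wildtype strain p1087, and on 1 array RNA of the *din1Δ* strain p1044 was hybridised with RNA of the wildtype strain p344. The study lists p1088 with a *ura4+* reporter in centromeric outer repeats and an *ade6+* reporter in the mating type locus. It also lists the mating type genotype *Mat1 Msmt0* and mutant alleles of *leu1*, *ade6* and *ura4* in p1088. Its strain list does not hold p1087, p1044 or p344, so other differences between the paired strains are not known. In the temperature-sensitive *dhp1-1* allele, *ura4+* marker sequence stands in for part of the gene and the Dhp1 protein made lacks its C-terminal part, and *din1Δ* lacks the *din1* gene. All cultures grew at 30°C, a permissive temperature for *dhp1-1*, in rich YEA medium to log phase, and ribosomal RNA was depleted from every sample. Mutant cDNA carried Cy5 and wildtype cDNA Cy3 on each array, with no dye swap, and a probe's dye effect and its change in RNA cannot be told apart. Values are log2 ratios of mutant over wildtype unless another scale is named, so that 0 means equal signal.

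Dhp1, known as Rat1 in budding yeast and Xrn2 in animals, is a nuclear 5′-3′ exoribonuclease that degrades RNA from its 5′ end and takes part in ending transcription. Din1 is its partner protein, which acts on the 5′ ends of RNA. In fission yeast, heterochromatin keeps transcription low over centromeres, the silent mating type locus and the regions next to telomeres, and the study asked how far loss of Dhp1 function lifts silencing at centromeres and the mating type locus.

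Probe sequences and positions were not used here, and the region could only be placed through landmarks. Each of 36 genes of a list of silencing factors was found at 1 place on the array, to within 40 numbers, as a stretch of probes whose mean deposited ratios on *dhp1-1* replicate 1 and *din1Δ* matched the values that the study lists for it. The 13 of these genes that lie on chromosome II followed each other in gene order. The first of them was *clr3*, which codes for a histone deacetylase of heterochromatin, at probe 6865. In the gene order of ASM294v3, 247 chromosome II genes lie before *clr3*. If all 6864 numbers before *clr3* lie on chromosome II, that gives 27.8 numbers per gene. From *clr3* to the next placed gene, *clr4*, there were 22.9 numbers per gene. The region holds 32.6% of the numbers before *clr3*. Its working name, an end of chromosome II, rests on this order alone and was not borne out for the lowest numbers, as the brightness comparison at the end of the results describes. The region is therefore called by its numbers.

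In wildtype cells most of the region was dim. On the *dhp1-1* arrays 36.2% and 30.9% of its probes rose well above background in the wildtype channel, and on the *din1Δ* array 31.1%, against 72.1%, 67.7% and 67.7% of the probes of the rest of the array. Against the array median, its mean wildtype level was -0.75 and -0.86 log2 units on the *dhp1-1* arrays and -0.85 on the *din1Δ* array. The 4 brightest tiles were 48 even, 18 odd, 17 odd and 30 even, at 3.35, 2.41, 2.02 and 1.98 log2 units above the median as means of 3 arrays. The dimmest were 24 odd, 55 odd, 55 even and 41 odd, between -1.87 and -1.79. Nearly all probes of those 4 tiles, at least 95.0% on each array, were not well above background in either channel, so their ratios are not read. Because the runs had been chosen in this channel, their likeness between strands is a description. The gap between odd and even tiles had a median of 0.23 log2 units over the 38 windows of the runs and 0.40 over the 18 windows between them, and the highest gaps were 1.04 and 3.28.

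The first run had the highest ratios of the stretches in *dhp1-1*. Its mean log2 ratio was 0.53 and 0.45 in *dhp1-1* replicates 1 and 2, or 0.49 ± 0.05 (SD, n = 2, 1.41-fold), against 0.10 on the *din1Δ* array. On both *dhp1-1* arrays the other 6 stretches lay below it. With limma, the *dhp1-1* ratio had a standard error of 0.09 and an adjusted p of 0.000198 over 8709 features tested. Both strand sets were raised, with odd-numbered probes at 0.57 and 0.47 and even-numbered probes at 0.49 and 0.44 in replicates 1 and 2.

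**Figure D1:**
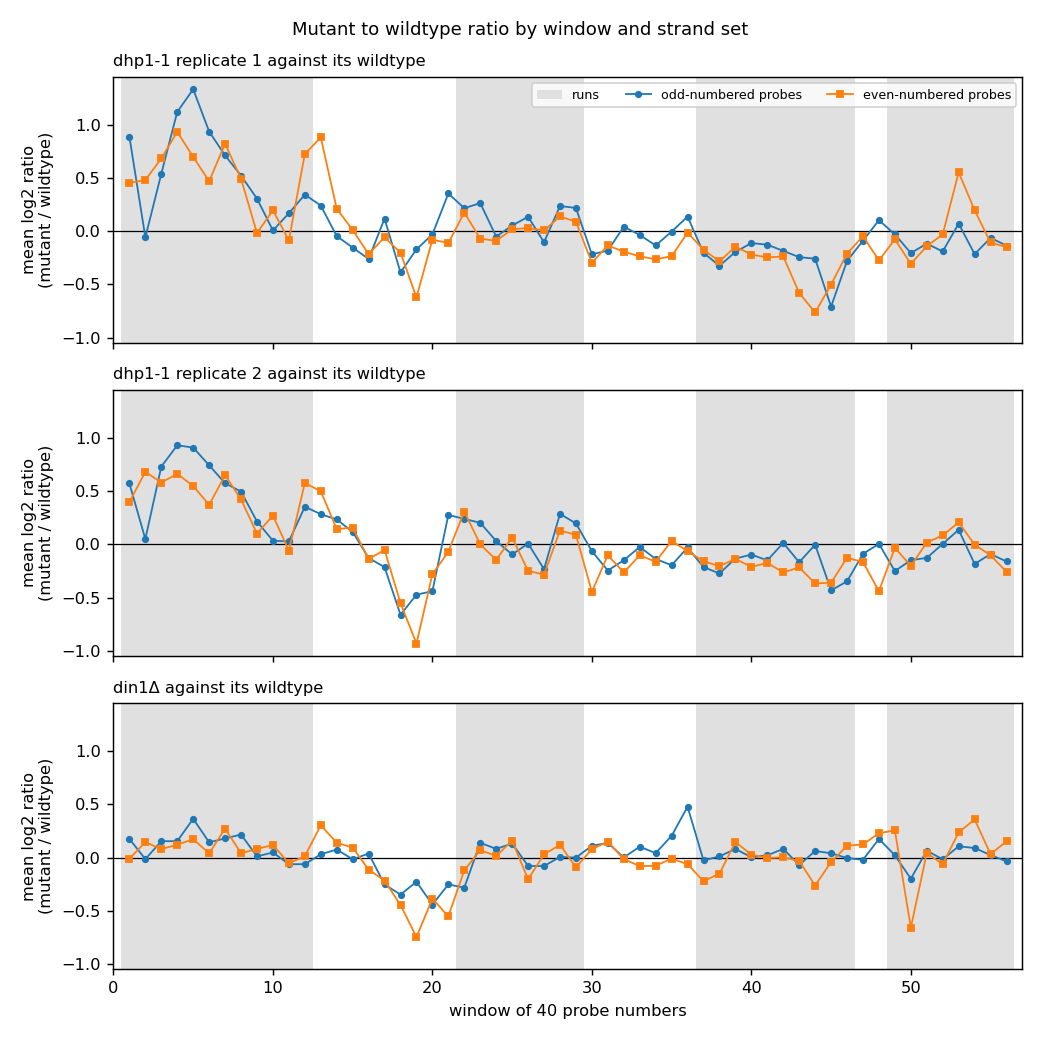
Mean log2 ratio of mutant over wildtype (vertical axis) in windows of 40 probe numbers, numbered 1 to 56 (horizontal axis), for odd- and even-numbered probes, with a panel for each array and the runs shaded. In both dhp1-1 panels the line of odd-numbered probes is highest in windows 4 and 5, and the line of even-numbered probes reaches -0.62 and -0.93 in window 19. That line is lowest in window 19 in replicate 2, and in window 44, at -0.76, in replicate 1. In the din1Δ panel the line of even-numbered probes is lowest in window 19, and the highest point of the first run stands at 0.36.

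Most tiles called higher lay at the start of the region. Over the whole array, 18.8% of tiles were higher in *dhp1-1* than in wildtype and 10.4% were lower at an adjusted p under 0.05. In the region, 26 tiles (23.2%) were higher and 15 (13.4%) lower. Of the 24 tiles of the first run, 19 were higher (79.2%) and 0 lower, also 0 lower at an unadjusted p under 0.05. In windows 13-56, 7 of 88 tiles were higher (7.95%) and 15 lower (17.0%). The median tile of the first run stood at 0.55, against -0.12 in windows 13-56 and 0.02 over the whole array. With median centring of each array in place of loess, 17 tiles of the region were higher and 35 lower, so the balance of calls over the region depends on the scaling, whereas the ratio of the first run kept its direction and its call.

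The 8 highest called tiles of the region all lay in windows 1-13. Tile 5 odd was the highest, at 1.34 and 0.91 in *dhp1-1* (1.12 ± 0.30, SD, n = 2, 2.18-fold, adjusted p 2.82e-08 with limma) and 0.36 in *din1Δ*. It ranked 75 from the top of 8702 tiles. Tile 4 odd followed, at 1.12 and 0.93 in *dhp1-1* (2.04-fold) and 0.15 in *din1Δ*. Both replicates therefore put the peak of the raised part in windows 4 and 5, and *din1Δ* also had its highest window of the region there, window 5, at 0.27. On the other strand set of the same windows, tile 4 even stood at 0.94 and 0.66 in *dhp1-1* and at 0.12 in *din1Δ*. The other 5 of the 8 were 6 odd, 7 even, 1 odd, 13 even and 12 even, with *dhp1-1* means between 0.65 and 0.84, from 1.57- to 1.79-fold.

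The raised part was not even. Windows 1 to 8 had ratios from 0.21 to 1.03 in replicate 1 and from 0.37 to 0.80 in replicate 2. Windows 9, 10 and 11 then lay between 0.04 and 0.15 in replicate 1 and between -0.02 and 0.16 in replicate 2. The ratio was high again in windows 12 and 13, at 0.54 and 0.57 in replicate 1 and 0.46 and 0.39 in replicate 2, and fell back to 0.08 and 0.19 in window 14. By window means, the raised signal thus had a main part over about the first 8 windows, a lower part, and a second narrow part that crossed the end of the run. Single strand sets did not all follow this. In the lower part, 9 odd (0.31 and 0.22) and 10 even (0.20 and 0.27) were still called higher in *dhp1-1*. In the main part, 2 odd stood at -0.06 and 0.05.

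In bins of 10 numbers, the second part was strongest on the even-numbered probes. The last bin of window 12 and the first bin of window 13 had even-probe ratios of 1.67 and 1.68 in *dhp1-1* replicate 1 and 1.09 and 1.08 in replicate 2, against 0.15 and 0.46 in *din1Δ*. The odd-numbered probes of the same bins had 0.57 and 0.71 in replicate 1 and 0.55 and 0.63 in replicate 2. In the third bin of window 13 the odd-numbered probes were at 0.04 and 0.07 in the *dhp1-1* replicates. The even-numbered probes of that bin were at 0.43 and 0.28, and those of the last bin of window 13 at 0.60 and 0.19. Past window 13, the even-numbered probes of numbers 521 to 530 were at 0.77 and 0.40 in *dhp1-1* and 0.33 in *din1Δ*. Those of numbers 531 to 540 were at 0.18 and 0.11 in *dhp1-1*. The second part lay on both sides of the end of the run, so the edge of the run did not mark an edge of the *dhp1-1* signal. The tiles of the first run that did not pass the test were 2 odd, 10 odd, 11 odd, 9 even and 11 even, with *dhp1-1* means from -0.07 to 0.10.

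The mutant channel rose out of the background over the first run. Probes well above background made up 65.2% of the run in the *dhp1-1* channel and 35.2% in the wildtype channel in replicate 1, and 45.0% against 30.6% in replicate 2. On the *din1Δ* array the shares were 34.8% in the *din1Δ* channel and 31.5% in wildtype. Probes seen above background in the mutant only made up 30.4%, 15.2% and 3.96% of the run in *dhp1-1* replicate 1, replicate 2 and *din1Δ*, against 13.1%, 6.24% and 2.60% of the whole array. Replicate 1 had a brighter mutant channel than the other arrays throughout (84.3% of all numbered probes above background, against 71.0% in *dhp1-1* replicate 2 and 66.1% in *din1Δ*), and the part this plays in the shares was not tested.

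The raised part held windows of different brightness. In windows 4 and 5, 70.0% and 87.5% of probes were above background in the *dhp1-1* channel of replicate 1, against 7.5% of wildtype probes in each. In replicate 2 the shares were 37.5% and 22.5% in *dhp1-1*, against 2.5% in wildtype in each. Windows 7 and 8 were different, since at least 80% of their probes were already above background in the wildtype of both *dhp1-1* arrays, and their ratios were 0.77 and 0.51 in replicate 1 and 0.61 and 0.46 in replicate 2. Raised ratios therefore occurred both where wildtype RNA was near background and where it was well measured. Over the whole run, probes well above background in wildtype averaged 0.67 and 0.56 in replicates 1 and 2, and the others 0.45 and 0.41. Over the whole array, the probes not well above background in wildtype averaged 0.16 and 0.11 in the same replicates.

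**Figure D2:**
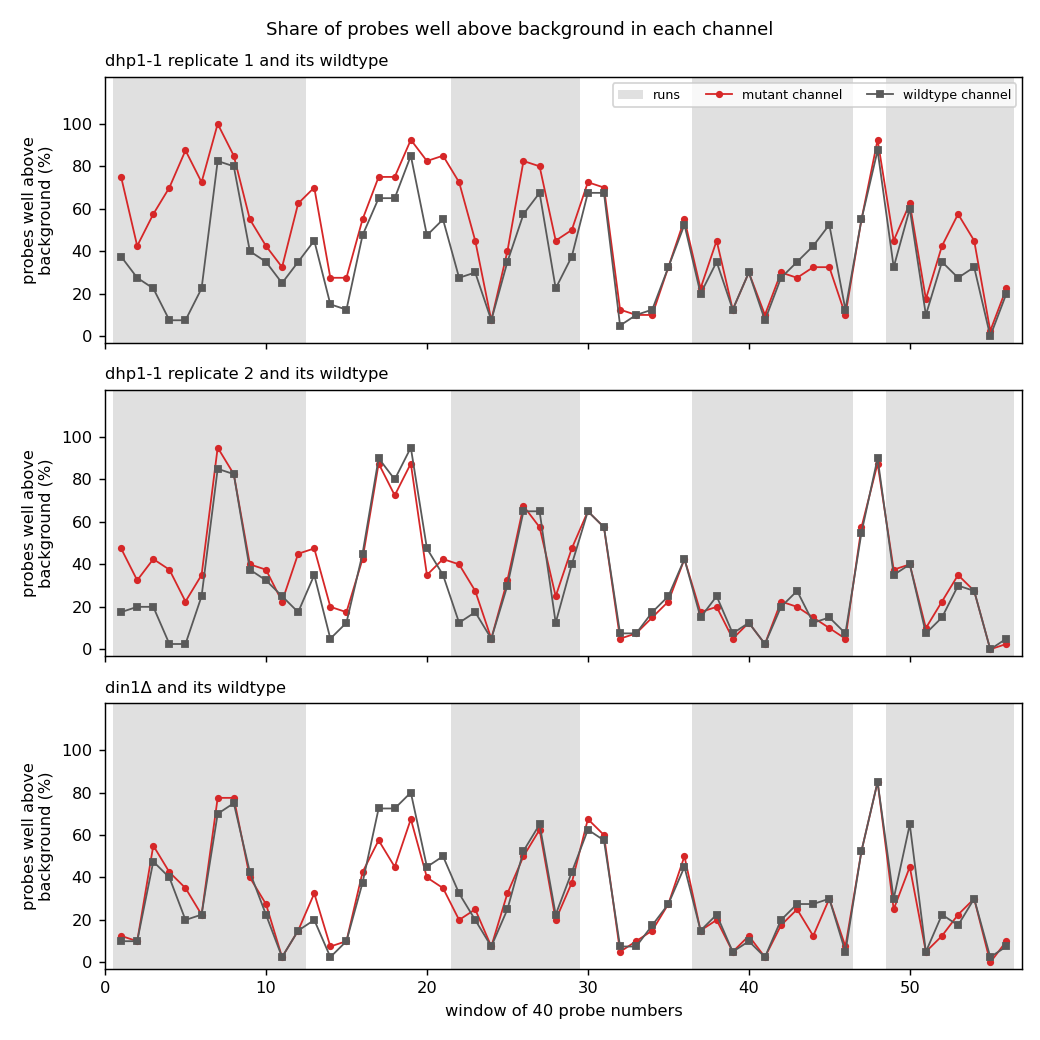
Percent of the 40 probes of each window that were well above background (vertical axis) by window number (horizontal axis), in the mutant and the wildtype channel of each array, with the runs shaded. In both dhp1-1 panels the mutant line lies above the wildtype line over windows 1 to 6, and from window 23 on the lines of replicate 2 and of din1Δ mostly run together.

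The wildtype channels also differed over the first run. In windows 3 and 4 the wildtype of *dhp1-1* replicate 1 had 22.5% and 7.5% of probes above background and that of replicate 2 had 20% and 2.5%, against 47.5% and 40% for the wildtype of the *din1Δ* array. In window 11 the order was the other way, with 25% on each *dhp1-1* array and 2.5% on the *din1Δ* array. Differences between the mutants over these windows therefore also hold a difference between the p1087 and p344 channels, and mutant, wildtype strain and array cannot be told apart.

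The stretch of windows 13-21 held windows that were low in *dhp1-1* and in *din1Δ*. Over the whole stretch the mean was -0.03 and -0.12 in *dhp1-1* replicates 1 and 2 (adjusted p 0.58 with limma) and -0.18 in *din1Δ*. The low part was narrower than the stretch. Window 19, one of the brightest of the region in wildtype, had ratios of -0.40 and -0.70 in *dhp1-1* and -0.49 in *din1Δ*, which was the lowest window of the region on the *din1Δ* array. Window 18 had -0.29 and -0.61 in *dhp1-1* and -0.40 in *din1Δ*. All 4 tiles of these windows were lower in *dhp1-1*. Without replicate 2, the *dhp1-1* values of 18 even and 19 odd were -0.20 and -0.17, against means of -0.38 and -0.32. The lowest was 19 even, at -0.62 and -0.93 in *dhp1-1* (-0.78 ± 0.22, SD, n = 2, 0.58-fold, adjusted p 2.00e-06 with limma) and -0.75 in *din1Δ*. It ranked 59 from the bottom of 8702 tiles, and it was the only tile of the region past 1.6-fold down on the *din1Δ* array, where 1.52% of all tiles were. No tile of the region was past 1.6-fold up in *din1Δ*, where 0.31% of all tiles were.

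Towards the end of the stretch the mutants parted. In window 21 the ratio was 0.12 and 0.11 in *dhp1-1* and -0.40 in *din1Δ*, and in window 22 it was 0.20 and 0.27 in *dhp1-1* and -0.20 in *din1Δ*. Tile 21 odd was higher in *dhp1-1*, at 0.36 and 0.28, against -0.25 in *din1Δ*. In these windows 85.0% and 72.5% of probes were above background in the mutant channel of *dhp1-1* replicate 1, against 55.0% and 27.5% in its wildtype channel. In replicate 2 the shares were 42.5% and 40% in *dhp1-1*, against 35.0% and 12.5% in wildtype.

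The second run stood near 0 as a whole. Its mean was 0.08 and 0.03 in *dhp1-1* (adjusted p 0.675 with limma) and -0.01 in *din1Δ*, with 3 of 16 tiles higher and 0 lower (5 and 0 at an unadjusted p under 0.05). The 3 were 22 even, 23 odd and 28 odd, all with *dhp1-1* means from 0.23 to 0.26. Under median centring the mean of this run was -0.03, so that its sign is not fixed.

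The stretch of windows 30-36 had ratios of -0.13 and -0.14 in *dhp1-1* and 0.08 in *din1Δ* (adjusted p 0.284 for *dhp1-1* with limma). Its bright tile 30 even, with 95.0% of probes above background in both channels of each array, was at -0.30 and -0.45 in *dhp1-1* (adjusted p 0.00314) and at 0.08 in *din1Δ*. It was the only tile of the 14 called, and none was above 0 in both replicates. Windows 32 to 35 were dim, with 5.0% to 32.5% of probes above background in the wildtype channels.

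The third run was the one run that was lower in *dhp1-1*. Its mean was -0.30 and -0.20 in replicates 1 and 2, or -0.25 ± 0.07 (SD, n = 2, 0.84-fold, adjusted p 0.0371 with limma), against -0.01 in *din1Δ*. Of its 20 tiles, 8 were lower (40%) and 0 higher (12 and 0 at an unadjusted p under 0.05), and 19 were below 0 in both replicates. The lowest was 45 odd, at -0.71 and -0.43 in *dhp1-1* (adjusted p 7.21e-05) and 0.04 in *din1Δ*, followed by 44 even at -0.76 and -0.37 in *dhp1-1* and -0.26 in *din1Δ*. Tiles 45 even and 43 even were at -0.43 and -0.40 as means of the *dhp1-1* replicates. These 4 tiles lay in windows 43-45. Without replicate 1, 43 even and 44 even stood at -0.22 and -0.37.

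This run also had the lowest mean wildtype level of the 4 on the *dhp1-1* arrays, -1.09 and -1.36 log2 units against the array median. On the *dhp1-1* arrays, 25.3% and 13% of its probes were above background in the mutant channel and 27.5% and 14.5% in the wildtype channel. Probes well above background in wildtype averaged -0.60 in replicate 1 and -0.27 in replicate 2, and the others -0.18 and -0.19, while such dim probes averaged above 0 over the whole array. The run's call was lost with the scanner's own log ratio (adjusted p 0.0644), the deposited table (0.336), the median over probes (0.0783) and odd-numbered probes alone (0.0642).

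Ratios in the last part of the region were small. The stretch of windows 47-48 was the brightest in wildtype and had ratios of -0.08 and -0.17 in *dhp1-1* (adjusted p 0.32 with limma) and 0.13 in *din1Δ*. Its tile 48 even, the brightest of the region, was at -0.27 and -0.44 in *dhp1-1* (adjusted p 0.00426) and at 0.23 in *din1Δ*. The last run had -0.06 and -0.07 in *dhp1-1* (adjusted p 0.643) and 0.03 in *din1Δ*, with 1 tile higher, 53 even at 0.56 and 0.21, and 1 lower, 50 even at -0.31 and -0.20. Tile 50 even was lower still in *din1Δ*, at -0.66.

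The region ended just before a strong change. Window 56, the last inside, had -0.14 and -0.21 in *dhp1-1* and 0.06 in *din1Δ*. Window 57, the first outside, had -1.20 and -1.26 in *dhp1-1* and 0.04 in *din1Δ*, and its odd tile, at -1.72 and -1.77, was the third lowest of all tiles on the array. The next window, 58, stood at -0.64 in both *dhp1-1* replicates and at -0.27 in *din1Δ*.

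Set against the numbers between them, the runs as a class were higher on each array, but without the first run not in both *dhp1-1* replicates. The runs together averaged 0.09 and 0.08 in *dhp1-1* and 0.03 in *din1Δ*, and the numbers between them -0.07 and -0.13 in *dhp1-1* and -0.05 in *din1Δ*. The difference was 0.16 and 0.22 in *dhp1-1* and 0.08 in *din1Δ*. Without the first run, the difference was -0.04 and 0.04 in *dhp1-1* and 0.05 in *din1Δ*, so the *dhp1-1* replicates did not share a sign. The first run exceeded the other 3 runs by 0.64 and 0.54 in *dhp1-1* and by 0.10 in *din1Δ*. These are values for each array, since 2 arrays cannot give an exact two-sided sign-flip test a p under 0.5.

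**Figure D3:**
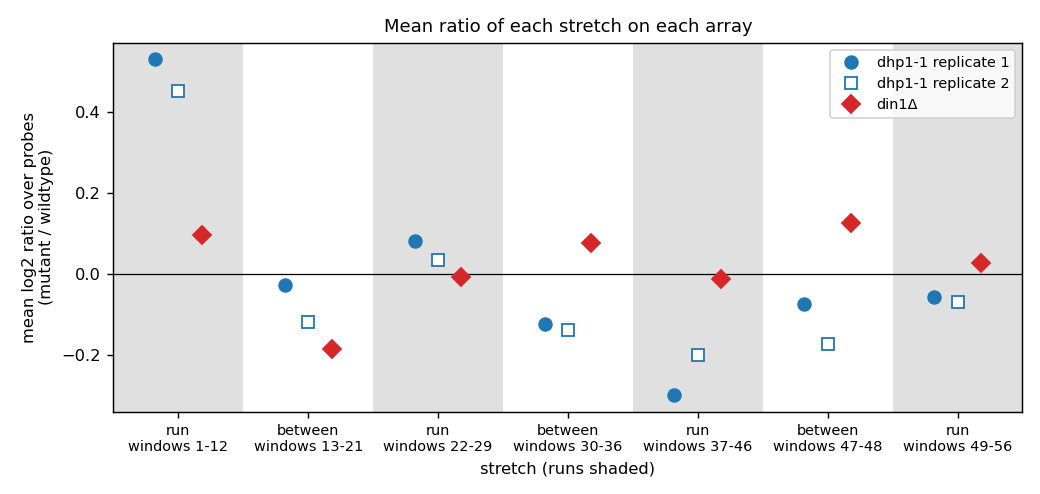
Mean log2 ratio over the probes of each stretch (vertical axis), in the order of their probes (horizontal axis), as a point for each array, with the runs shaded. The dhp1-1 points of the first run stand at 0.53 and 0.45, above every other point, and those of the third run at -0.30 and -0.20 are the lowest.

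In *dhp1-1* the ratio correlated negatively with probe number, and more weakly without the first run, so a steady decline was not shown. Over 56 windows the Pearson correlation of ratio and number was -0.65 and -0.60 in *dhp1-1* and 0.00 in *din1Δ* (Spearman -0.62, -0.58 and -0.08). Over the 44 windows after the first run it was -0.30 and -0.14 in *dhp1-1* and 0.32 in *din1Δ*. Across the 56 windows the *dhp1-1* replicates had a correlation of 0.92, and *dhp1-1* replicates 1 and 2 had correlations of 0.41 and 0.50 with *din1Δ*. Odd and even tiles of a window correlated at 0.76 and 0.80 in *dhp1-1* and 0.62 in *din1Δ*. The correlation of ratio and wildtype level was -0.18 and -0.36 in *dhp1-1* and -0.33 in *din1Δ*. These are descriptions, in which neighbouring windows may share transcripts and each ratio shares its wildtype channel with the level.

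The contrast of *dhp1-1* minus *din1Δ* asks which tiles differ between the mutants, on the assumption that the single *din1Δ* array varies like the *dhp1-1* arrays. Over the array, *dhp1-1* was above *din1Δ* at 8.77% of tiles and below it at 4.56%. In the region, *dhp1-1* was above *din1Δ* at 12 of its tiles and below at 2, and 9 of the 12 lay in the first run. The largest was 4 odd, at 1.03 in *dhp1-1* and 0.15 in *din1Δ*, a difference of 0.87 with a standard error of 0.16 (adjusted p 0.000717 with limma). Outside the first run, *dhp1-1* was above *din1Δ* at 21 odd, 21 even and 22 odd, with *din1Δ* means from -0.55 to -0.25. It was below *din1Δ* at 45 odd and 48 even, with differences of -0.61 and -0.59. For the first run as a whole the difference was 0.39 with a standard error of 0.15, which did not pass the test (adjusted p 0.0962). Of the 26 tiles higher in *dhp1-1*, 22 were also above 0 in *din1Δ*, and of the 15 lower tiles 10 were below 0 in *din1Δ*, where 68 of all the region's tiles were above 0 and 44 below. Whether these counts differ was not tested.

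Where else on the array the same pattern of bright and dim probes occurred was searched with the wildtype signal, in windows of 80 numbers every 40, read in the same and in the inverted order. A match was read only where at least 2 windows gave the same alignment to within 4 numbers, a rule set after the values were seen. Of 55 windows searched, 7 did so, in 2 places. The windows of 80 numbers from sp40c_1 and sp40c_41 matched numbers from 53725 on, in the same order, with Spearman correlations of 0.81 and 0.56, against 0.49 and 0.50 for the next best place. The 5 windows of 80 numbers from sp40c_681 to sp40c_920 matched numbers 112901-113138 in the inverted order, with correlations from 0.52 to 0.83, against 0.47 to 0.76 for the next best places.

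The first match lies inside the numbers of chromosome II. It falls between the placed genes *atf1*, from probe 39189, and *clr1*, from probe 75423, an interval of 1524 genes in ASM294v3 that includes the mating type genes *mat1-Mi*, *mat1-Mc*, *mat3-Mi* and *mat3-Mc*, and it was not placed more closely. Over 120 aligned numbers the mean ratio was 0.50 in both *dhp1-1* replicates in windows 1-3, against 0.34 and 0.36 at the match, and 0.09 in *din1Δ* in windows 1-3, against 0.03 at the match. The likeness was not even along windows 1-3. In window 2, sp40c_70 stood at 2.36 and 2.86 in *dhp1-1*, against 1.98 and 2.65 at the match. In window 3, sp40c_90 stood at 2.52 and 2.04, against 0.14 and 0.18. These are single probes, picked after the values were seen. The aligned probes correlated at 0.65 and 0.52 (Spearman) in *dhp1-1* and 0.14 in *din1Δ*. The working name was thus not established for windows 1-3, and no landmark lay in the first run or in window 13, so that the raised part as a whole was placed by probe order alone.

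The second match lies after *las1*, the last placed gene of chromosome II, at probe 109310, and was not placed more closely. In windows 18-20 the mean ratio was -0.25 and -0.56 in *dhp1-1* and -0.43 in *din1Δ*, against -0.27 and -0.61 in *dhp1-1* and -0.46 in *din1Δ* at the match. In windows 21-23 it was 0.14 and 0.16 in *dhp1-1* and -0.17 in *din1Δ*, against 0.12 and 0.14 in *dhp1-1* and -0.20 in *din1Δ* at the match. Probe by probe, the ratios of windows 18-20 and at the match correlated at 0.83 and 0.70 (Spearman, 120 probes) in *dhp1-1* and 0.50 in *din1Δ*. The low part of both mutants and the place where they part near the start of window 21 were thus also seen at the match. Both matches were chosen on the wildtype channel, which the ratios share. Likeness of the ratios is therefore a description and cannot be read as a separate occurrence. Whether probes at both places share sequence was not tested.

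**Figure D4:**
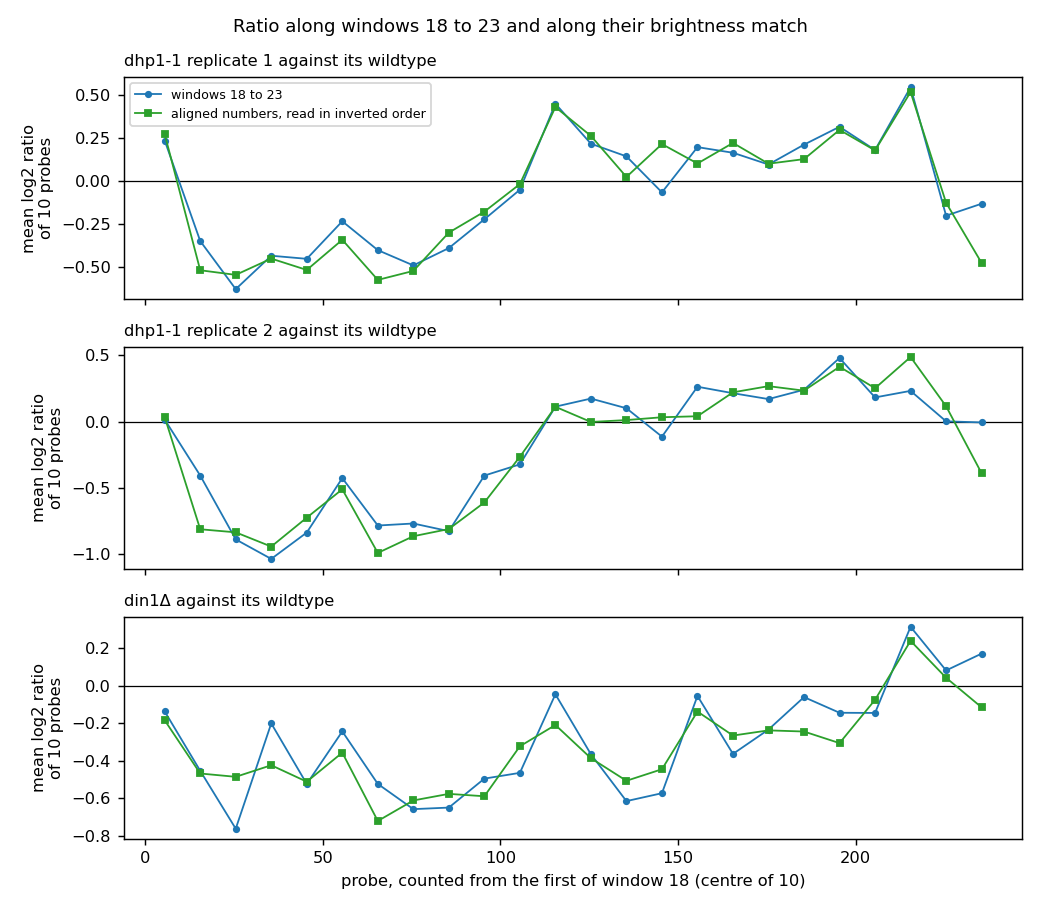
Mean log2 ratio of 10 probes (vertical axis) along windows 18 to 23 (horizontal axis, numbered from the first probe of window 18) and along the aligned numbers 112901 to 113138 read in inverted order, with a panel for each array. The lines run close together on each array, low over windows 18 and 19 and mostly near or above 0 in windows 21 to 23 in dhp1-1, while in din1Δ they stay below 0 through window 22.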

How the data were processed

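RNA of 3 mutant cultures was compared with wildtype RNA on Agilent 2-colour arrays. Spots were read with Agilent Feature Extraction 10.7.3.1, per the labels. For each spot the authors deposited the raw intensity of the spot and of its surroundings, a dye-normalized signal intensity, a log10 ratio (Cy5 over Cy3) with a p-value, and flags, and a table of log2 ratios that holds 0 wherever the scanner p-value was 0.05 or more. The number of sample columns left unused was 0. The scanner headers and the study's methods name different annotations, so no coordinate is given.

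Median spot signals were corrected with normexp (offset 50) and normalized by loess in limma 3.58.1 (R 4.3.3), without control spots and outlying spots (295, 1345 and 645 of 180880 on *dhp1-1* replicates 1 and 2 and *din1Δ*, of which 2, 16 and 6 lay in the region). No spot was saturated. Tiles (20 probes of one parity in 40 numbers) and 7 stretches entered one fit (lmFit, eBayes, Benjamini-Hochberg over 8709 features). The single *din1Δ* array has no replicate and lends no spread to the fit. The number of arrays limits the precision, and *dhp1-1* replicate 1 shared a slide with *din1Δ*. The labels do not say whether the replicates came from separate cultures, so p-values measure the spread between these arrays. That spread was mostly pooled over all features, since eBayes gave the pooled value 19.2 prior degrees of freedom. The standard error of a tile or stretch therefore rests little on its own 2 *dhp1-1* values. The scripts were tested on simulated data. The gene table of ASM294v3 gave names and gene order only.

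Named were the 7 stretches, the 8 highest and 8 lowest called tiles with 1 sign in both replicates, the 4 brightest and 4 dimmest tiles, the extreme *din1Δ* windows and *clr3*; other tiles, windows and genes, the bins of 10 numbers and the brightness search were chosen after values were seen. The members and lists were chosen with earlier results of these data known. Alternatives were other background correction, normalization and tables, filters on dim probes, medians, single strand sets, trimmed runs, the shared slide and each replicate left out.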

Additional observations from a re-analysis of the deposited data

Results flagged for a closer look

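Flags covered the 8 highest, 8 lowest, 4 brightest and 4 dimmest tiles, and the highest and lowest had been picked by their *dhp1-1* ratio. The difference between the mutants, *dhp1-1* minus *din1Δ*, passed the test (limma, adjusted p under 0.05) at 8 of these tiles. It was 0.56 at 1 odd, 0.87 at 4 odd, 0.76 at 5 odd, 0.70 at 6 odd, 0.68 at 4 even and 0.64 at 12 even, where *dhp1-1* was above *din1Δ*. It was -0.61 at 45 odd and -0.59 at 48 even, where *dhp1-1* was below. Over the whole array, *dhp1-1* was above *din1Δ* at 8.77% of tiles and below it at 4.56% by the same test. Tiles 21 odd, 21 even and 22 odd also passed it, but lay outside the sets that were flagged. The wildtype strains differed between the mutants, and *din1Δ* rests on 1 array.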

How the results depend on the processing

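Of 95 tested repeats of the *dhp1-1* ratios of the stretches and of the differences between the mutants under other settings, 88 kept direction and side of the threshold. The ratio of the first run lost its call only with the deposited table (0.66, adjusted p 0.0933). That of the third run lost it with the scanner's log ratio (-0.46), the deposited table (-0.25), the median over probes (-0.24) and odd-numbered probes alone (-0.22). Under median centring the second run turned to -0.026, and its difference from *din1Δ* to -0.017, with neither called. The *din1Δ* values of the stretches moved by less than the spread of the fit in 46 of 49 repeats, and the differences between runs and the numbers between them by less than the spread between *dhp1-1* replicates in 24 of 42. With a *dhp1-1* replicate left out, a value is that of the other replicate, as given in the results; neither a test nor tile counts could be given because no residual degree of freedom was left. Tiles higher and lower in *dhp1-1* (26 and 15) were 17 and 35 with median centring, 2 and 0 with the deposited table (limma, 7 lower at an unadjusted p under 0.05), 7 and 9 of 44 tiles with only probes above background in wildtype, and 7 and 8 of 41 with both channels above background. Tiles where *dhp1-1* was above *din1Δ* (12) were 7 without background correction, 1 with the scanner's log ratio, 3 with median centring, 0 with the deposited table, 5 with either filter and 6 with medians; those below (2) were 0 with the scanner's log ratio, 1 with median centring and 0 with the deposited table. At an unadjusted p under 0.05 those above and below were 18 and 13 with the scanner's log ratio and 9 and 2 with the deposited table. The filters leave fewer tiles to test, and the deposited table holds 0 at 69.1%, 78.8% and 84.3% of the region's probes on *dhp1-1* replicates 1 and 2 and *din1Δ*; for the other settings the cause was not tested. Of 91 tested repeats of the 16 named tiles, none turned direction and 17 lost the call, 16 of them with the deposited table. In windows of 60 numbers every 20, an alternative added after the data were seen, the alignments were found again by 3 windows up to sp40c_100 and by 7 windows from sp40c_641 to sp40c_880, and not for the second part of window 3 nor for window 23. The windows from sp40c_661, sp40c_701 and sp40c_801 matched best elsewhere. The rule of 2 windows was also met at other places, by the windows from sp40c_1341 and sp40c_1361, from sp40c_1521 and sp40c_1541, and from sp40c_2041 and sp40c_2061. The rule alone thus does not single out the alignments that were read. Dim wildtype probes limit the ratios of most of the region. No paired analysis was possible because the mutants share fewer than 2 replicate numbers.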
